A study of Mus musculus with 5 samples.

Results

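Heat shock and endoplasmic reticulum chaperones were examined in parvalbumin-positive interneurons of mouse cerebral cortex, isolated by sorting, with and without the circadian gene Clock. The set held 10 genes: the HSP70 family members Hspa8, Hspa5 and Hspa9, the HSP110 family members Hspa4 and Hsph1, the HSP90 family members Hsp90aa1, Hsp90ab1 and Hsp90b1, the co-chaperone Sgtb and the transcription factor Atf4. Members were all probes that the platform annotation gives 1 of these symbols, which found 17 of the 45281 probes on the array, for 9 of the 19057 genes named there. No probe carried the symbol Hsp90ab1, so that gene was not analysed here.

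All 5 samples came from C57BL/6J mice that carry PV-GFP, a green fluorescent label of cells that make the calcium-binding protein parvalbumin, and all were taken at zeitgeber time 16 h. The 3 WT samples (replicates 1, 2 and 3) were Clock+/+ and came from mice of 61, 64 and 64 days. The 2 KO samples (replicates 1 and 3) were Clock-/- and came from mice of 61 and 60 days. Whether a sample is 1 animal or a pool is not stated in the labels. The p-values therefore speak only to the variation among these 5 arrays, which may be technical and whose small number limits precision.

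Chaperones of the HSP70 and HSP90 families hold newly made or damaged proteins in a foldable state through cycles of ATP binding and hydrolysis. HSP110 proteins and J-domain proteins set the pace of the HSP70 cycle. Cytosolic chaperone genes are induced by heat shock factors through heat shock elements. The endoplasmic reticulum chaperones are induced by the unfolded protein response through the ER stress element, and Atf4 is translated when protein synthesis is checked under stress. In neurons the constitutive HSP70, Hspa8, also strips the clathrin coat from synaptic vesicles together with the J-domain protein auxilin.

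The promoter windows of 4 members are shown because they hold the elements through which chaperone genes are known to be induced, or the E-box CACGTG that the CLOCK and BMAL1 pair is known to bind. Each runs from 250 bases before to 50 bases after a gene start in RefSeq, on build GRCm38.p6, written in the direction of the gene. Capitals mark an ER stress element (CCAAT and CCACG 9 bases apart) in Hspa5 and Hsp90b1, a heat shock element of 3 units (GAA and TTC in alternation, each pair 2 bases apart) and an E-box in Hsph1, and an E-box in Sgtb.
Hspa5, chr2:34771840-34772139, plus strand: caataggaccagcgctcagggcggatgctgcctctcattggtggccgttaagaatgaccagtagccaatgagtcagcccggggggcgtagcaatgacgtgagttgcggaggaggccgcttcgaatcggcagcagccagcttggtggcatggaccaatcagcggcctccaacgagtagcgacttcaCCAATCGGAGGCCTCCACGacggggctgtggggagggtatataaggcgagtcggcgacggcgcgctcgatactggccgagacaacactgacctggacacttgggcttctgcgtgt
Hsp90b1, chr10:86705395-86705694, minus strand: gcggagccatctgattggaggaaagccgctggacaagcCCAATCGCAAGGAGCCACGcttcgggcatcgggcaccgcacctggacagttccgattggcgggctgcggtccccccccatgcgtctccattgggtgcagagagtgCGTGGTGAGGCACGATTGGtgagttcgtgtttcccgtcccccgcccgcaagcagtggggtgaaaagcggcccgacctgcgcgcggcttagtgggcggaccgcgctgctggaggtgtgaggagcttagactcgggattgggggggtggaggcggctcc
Hsph1, chr5:149636266-149636565, minus strand: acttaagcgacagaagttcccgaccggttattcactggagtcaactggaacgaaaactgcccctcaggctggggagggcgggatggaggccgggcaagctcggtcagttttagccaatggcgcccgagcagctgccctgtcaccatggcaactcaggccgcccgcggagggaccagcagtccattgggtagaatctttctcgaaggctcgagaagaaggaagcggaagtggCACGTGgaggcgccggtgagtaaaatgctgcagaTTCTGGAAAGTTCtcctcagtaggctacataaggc
Sgtb, chr13:104109491-104109790, plus strand: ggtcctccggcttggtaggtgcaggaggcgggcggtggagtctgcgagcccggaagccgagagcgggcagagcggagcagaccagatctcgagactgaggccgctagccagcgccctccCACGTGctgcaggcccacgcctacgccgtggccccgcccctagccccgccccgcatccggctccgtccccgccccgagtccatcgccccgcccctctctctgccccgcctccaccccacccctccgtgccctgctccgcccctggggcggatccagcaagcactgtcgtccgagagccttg

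Both strands were searched in the windows of the 6 members that the RefSeq table covers, Hspa5, Hspa4, Hsph1, Hsp90b1, Sgtb and Atf4. An ER stress element was found in 2 of the 6, against 0.137% of 27025 genes with a window. Hspa5 had 1, beginning 65 bases before the start, and Hsp90b1 had 2, beginning 212 and 107 bases before it. A heat shock element of 3 units lay in 1 of the 6, Hsph1, against 0.662% of all genes, and it contains the only 2-unit match (GAANNTTC), a form present in 9.04% of all genes. E-boxes were present in 2 of the 6 and in 8.09% of all genes. The one in Sgtb began 131 bases before the start. The one in Hsph1 began 19 bases before the start in the window shown, and 2 bases after it in a second, overlapping window of the same gene. The element TGATGCAA, a form that ATF4 is known to bind, was in 0 of the 6 and in 1.03% of all genes. These matches describe the letters of the windows and were not measured as binding.

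Most of the array read at background. A probe was taken as detected when its deposited detection p was under 0.05, a threshold that about that share of background probes meets by definition. Detection on few arrays therefore does not establish expression. Between 1978 and 3671 of the 45281 probes met the threshold on an array, or 4.37% to 8.11%. The smallest number was on KO replicate 3, which also stood apart: across tested probes it correlated at 0.751 to 0.827 with the rest, while the remaining 4 arrays correlated at 0.860 to 0.924 with one another. The 3 Clock probes were detected on 0 of 5 arrays, so they do not check the genotype labels. Of 24 parvalbumin interneuron marker probes, 12 were detected on some array. By array, 12, 8 and 8 were detected in WT, 8 on KO replicate 1 and 4 on KO replicate 3. The summed level of all 24, undetected ones included, on the linear normalised scale was 4692 to 5019 on the WT arrays, 4542 on KO replicate 1 and 3444 on KO replicate 3. The sum of 17 GABA neuron probes, of which 6 were detected on some array, was 4116 to 4640, 4373 and 2911 in the same order. Pvalb differed by -1.24 (limma adjusted p = 0.801), by -0.72 on KO replicate 1 alone. Excitatory neuron and microglia markers were detected with 0 of 16 and 0 of 13 probes. The 16 undetected excitatory neuron probes still summed to 1503 to 1571 across the arrays, so such sums hold background. Among the other cell types the detected probes were 3 of 19 for other interneurons (Vip, Calb2 and Reln), 1 of 18 for astrocytes (Aldh1l1), 1 of 21 for the oligodendrocyte lineage (Mbp), 2 of 18 for endothelial and mural cells (Acta2 and Pecam1) and 1 of 17 for blood (Hbb-bt). Calb2, Reln, Acta2 and Pecam1 were each detected on only 1 array. Over the whole table, 40117 of the 45281 probes were detected on no array and the rest on 1 or more. In bulk samples of this kind, fewer cells of a type and less RNA per cell cannot be told apart.

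Chaperone probes were among those that could be measured. Of the 17, 12 were detected on at least 2 of the 5 arrays and were tested, against 7.39% of all probes, and they belong to 8 genes. Another 5 of the 17 were not: both Hspa4 probes, 1 of the 2 Sgtb probes and 1 of the 2 Atf4 probes were detected on no array, and the second Hspa9 probe on WT replicate 1 only. Detection on all 5 arrays was reached by 5 probes, the 3 of Hspa8, 1 of Hsp90aa1 and 1 of Sgtb, against 2.29% of all probes. In the WT samples 12, 11 and 8 member probes were detected on replicates 1, 2 and 3, and in the KO samples 8 and 6 on replicates 1 and 3. This order runs with the number of all probes detected on WT replicate 1 and KO replicate 3, the highest and lowest of the series, and the part of depth in the values below was not tested.

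**Figure D1:**
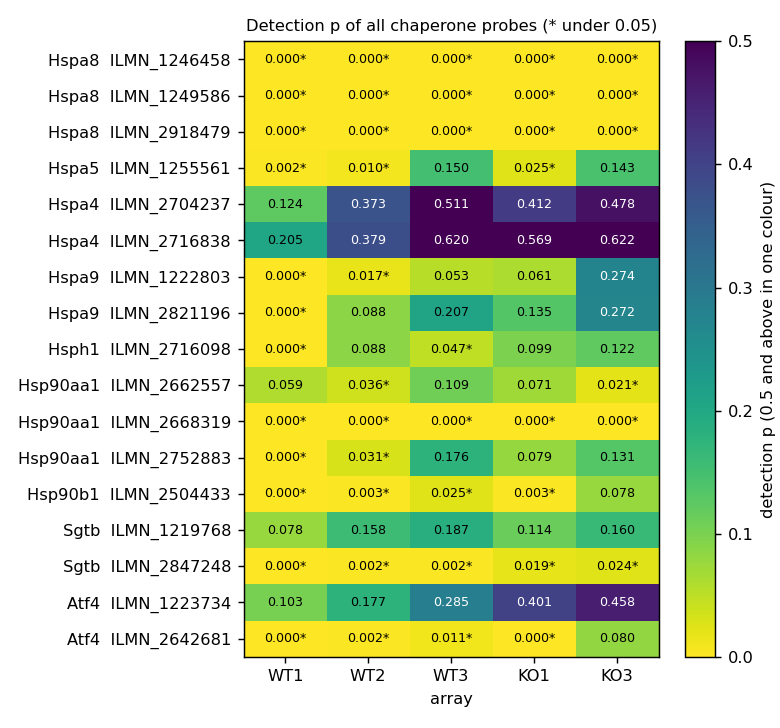
Detection p of each of the 17 chaperone probes (rows) on each of the 5 arrays (columns), with an asterisk where it is under 0.05. The 3 Hspa8 probes and 1 probe each of Hsp90aa1 and Sgtb carry an asterisk on all 5 arrays, while both Hspa4 probes carry none.

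KO was set against WT to see how chaperone expression differs in cells without Clock. No chaperone probe passed the test. With limma over all 3347 tested probes, 0 had an adjusted p under 0.05 (0% of probes), and 0 of the 12 chaperone probes did, with a smallest adjusted p of 0.801. A per-gene reading at an unadjusted p under 0.05 held 1 of 12 members lower in KO, Sgtb, against 2.90% of all tested probes, and 0 of 12 higher, against 3.02%. Differences are given as KO minus WT of the background-corrected, quantile-normalised signal on the log2 scale, with the standard error (SE) from limma.

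Sgtb, a co-chaperone with tetratricopeptide repeats that binds HSP70 proteins and is found mainly in neural tissue, had the smallest p among the members. Its probe ILMN_2847248 read 8.00, 8.13 and 8.21 in WT (replicates 1, 2 and 3), and 7.44 and 7.48 in KO (replicates 1 and 3). Both KO arrays lay below all 3 WT arrays, and the probe was detected on all 5. WT averaged 8.11 ± 0.10 (SD, n = 3) and KO 7.46 ± 0.028 (SD, n = 2), which differ by -0.66 ± 0.16 (SE), with a 95% confidence interval of -1.03 to -0.29 and a limma adjusted p of 0.801. The 2 KO arrays gave -0.68 and -0.64 against the WT mean, so the value did not rest on KO replicate 3. The normalised values without WT replicate 1 gave -0.71, but with the remaining arrays normalised anew the difference was -0.22. Without background correction, on all 5 arrays, the Sgtb difference was -0.17, and the median of the tested chaperone probes moved from -0.31 to -0.12. Before normalization the deposited signals were 2543, 3393 and 3805 in WT and 3255 and 2976 in KO. Those raw signals overlap through WT replicate 1, the array with the lowest median signal (1121, against 1687 to 1991 on the others). The second Sgtb probe, ILMN_1219768, was not above background on any array and gives no fold.

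**Figure D2:**
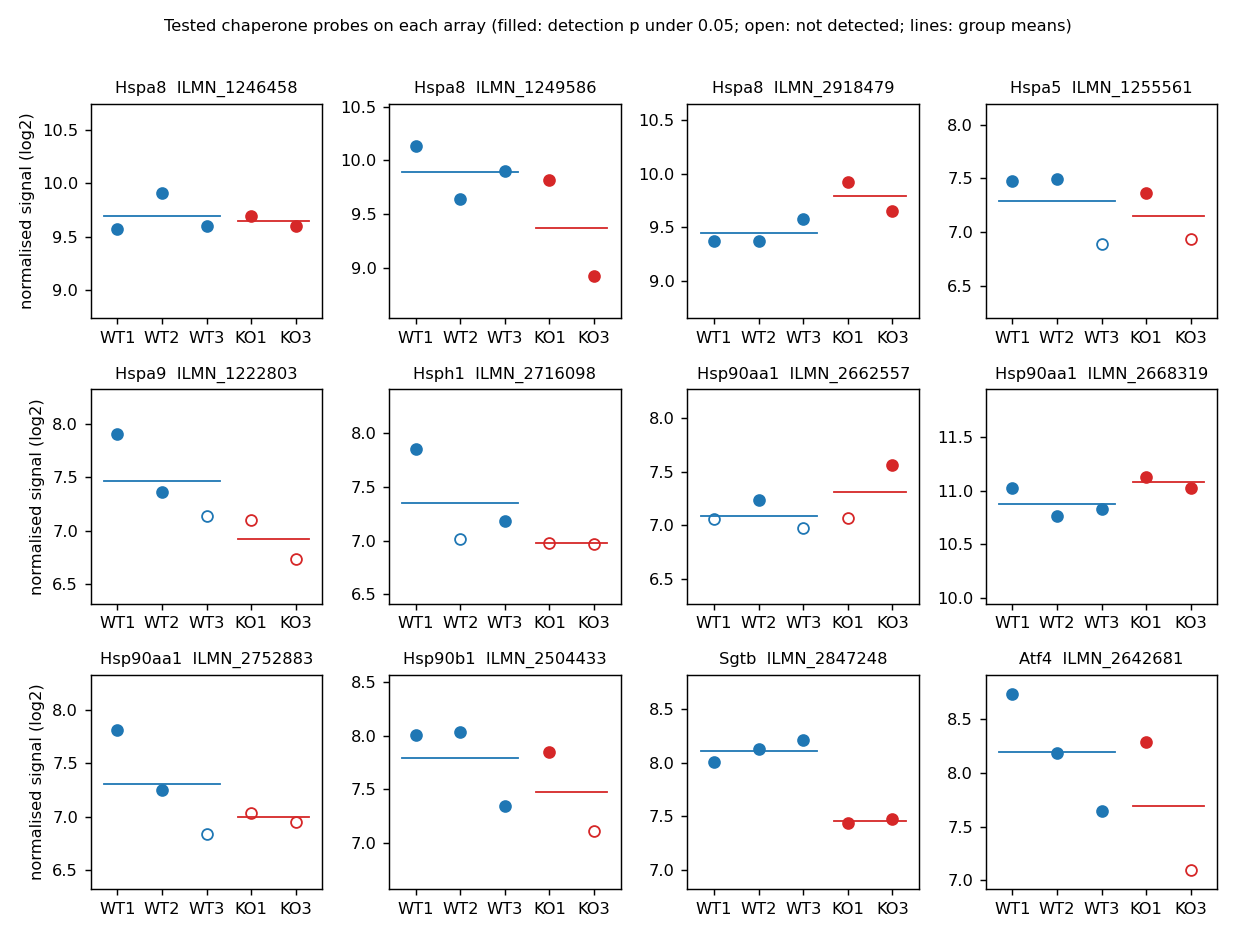
Normalised signal (log2) of the 12 tested chaperone probes on the 3 WT arrays (blue) and 2 KO arrays (red), each panel spanning 2 log2 units, with filled points where the probe was detected, open points where it was not, and lines at the group means. Sgtb lies at 8.00 to 8.21 in WT and at 7.44 and 7.48 in KO, while most other panels overlap or are split by WT replicate 1 or KO replicate 3.

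Hspa8, the constitutive cytosolic HSP70, was detected with all 3 of its probes on every array, and the probes did not move together. ILMN_2918479 read 9.38, 9.38 and 9.57 on the WT arrays and 9.92 and 9.66 on KO replicates 1 and 3. Both KO arrays were above all WT arrays there, with a difference of 0.35 ± 0.17 (SE). ILMN_1249586 read 10.14, 9.64 and 9.90 in WT, and 9.81 and 8.92 in KO. Its groups overlap, since KO replicate 1 lay inside the WT range and KO replicate 3 far below it. The difference of -0.53 ± 0.29 (SE) was -0.078 against KO replicate 1 alone. ILMN_1246458 read 9.57, 9.91 and 9.60 in WT and 9.69 and 9.60 in KO, a difference of -0.048 ± 0.17 (SE) with both KO arrays inside the WT range. The limma adjusted p was 0.801, 0.801 and 0.968 for the 3 probes in the order given. The signs depend on the scaling: under median scaling, where the tested probes as a whole shifted by a median of -0.39, ILMN_2918479 was at -1.23, and after cyclic loess ILMN_1249586 was at 0.26 and ILMN_1246458 at 0.34.

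The disagreement between the Hspa8 probes can be read within each array. ILMN_2918479 minus ILMN_1249586 was -0.76, -0.27 and -0.33 on the WT arrays and 0.11 and 0.74 on KO replicates 1 and 3. The groups do not overlap, and their means differ by 0.87, or by 0.56 without KO replicate 3. ILMN_2918479 minus ILMN_1246458 was also higher on both KO arrays than on any WT array, by 0.40 in the means, and the remaining pair overlapped. Across the 218 genes with at least 2 tested probes, the difference between groups did not overlap in 17.6% of 329 probe pairs, its median size was 0.24, and the top 10% of pairs began at 0.60. Those pairs include probes of low signal, whose differences the processing understates, and they were not matched to the Hspa8 probes in signal. Of the member pairs, 2 of 3 for Hspa8 and 1 of 3 for Hsp90aa1 did not overlap. The 2 Hspa8 contrasts share the probe ILMN_2918479, so they are not independent. Both Hspa8 contrasts stayed above 0 under all 21 alternatives, from 0.30 to 1.19 and from 0.13 to 0.57. The alternatives share the same arrays, and the changed detection filters and limma's trend and robust options cannot alter these contrasts. The replicate block repeats the values without WT replicate 2, so the count overstates how often the contrasts were tried. The Hsp90aa1 pair that did not overlap, ILMN_2752883 minus ILMN_2668319, differed by -0.51 and ranged from -2.19 after cyclic loess to 0.80 under median scaling, so its sign depends on the scaling. With 3 arrays against 2 there are 10 splits, so an exact permutation test of such a contrast cannot give a two-sided p below 0.1. The probes' sequences were not used here, so which transcripts each one reads is not stated.

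Hsp90aa1, the inducible cytosolic HSP90, also had 3 tested probes. ILMN_2668319, detected on all 5 arrays, read 11.02, 10.76 and 10.83 in WT and 11.13 and 11.02 in KO, a difference of 0.20 ± 0.16 (SE). The groups meet, because WT replicate 1 and KO replicate 3 had the same value. ILMN_2662557 was detected on 1 WT and 1 KO array and differed by 0.23 ± 0.20 (SE), with 7.05, 7.23 and 6.97 in WT and 7.06 and 7.57 in KO. Against KO replicate 1 alone that difference was -0.023. ILMN_2752883 was detected on WT replicates 1 and 2 and on neither KO array. Its group means gave at least 1.06-fold lower in KO, a bound set by the lowest detected signal of each KO array. The 95% confidence interval of its difference, -0.96 to 0.34, holds both directions. The probe read 7.81, 7.25 and 6.84 in WT and 7.04 and 6.95 in KO, so its groups overlap. Without WT replicate 1 the difference of -0.31 became -0.054 and left no bound. The limma adjusted p lay between 0.801 and 0.811 for the 3 probes. Under median scaling the first 2 differences were -1.58 and -0.24, the second above the shift of -0.39 over all tested probes. After cyclic loess ILMN_2668319 was at 1.89, so neither the sign nor the size of its difference is settled by these arrays.

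**Figure D3:**
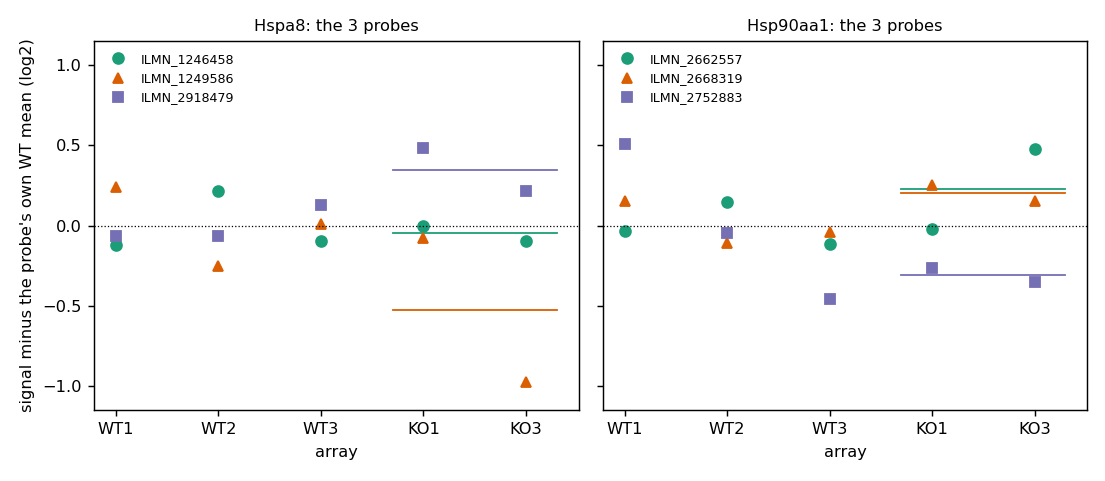
Signal of each of the 3 Hspa8 probes (left) and 3 Hsp90aa1 probes (right) on each array, as the log2 deviation from the probe's own WT mean, with short lines at the KO means. The KO means of the Hspa8 probes lie at 0.35, -0.048 and -0.53, and those of the Hsp90aa1 probes at 0.23, 0.20 and -0.31.

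The profile of Hsp90aa1 ILMN_2668319, the member probe of highest mean, was compared with those of all other tested probes with a gene name over the 5 arrays. The 3 nearest, by root mean square difference of deviations from each probe's own mean, were Syt4 (0.035), Calm2 (0.038) and Prkg1 (0.041). Syt4 encodes a synaptotagmin and Calm2 a calmodulin. Calm2 was detected on all 5 arrays, but Syt4 and Prkg1 on only 2 of the 5, so most of their values were not above background. The nearest chaperone probe, Hspa8 ILMN_2918479, had a root mean square difference of 0.15 and ranked only 478 among all tested probes, so it was not close.

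Hspa9, the HSP70 of mitochondria, and Hsph1, an HSP110 nucleotide exchange factor, were detected on WT arrays and on no KO array. Hspa9 ILMN_1222803 read 7.91, 7.36 and 7.13 in WT and 7.10 and 6.74 in KO, and Hsph1 ILMN_2716098 read 7.85, 7.01 and 7.18 in WT and 6.98 and 6.97 in KO. In both genes the KO arrays lay below all WT arrays, by a narrow margin, and WT replicate 1 was the highest array. Hspa9 was detected on WT replicates 1 and 2, Hsph1 on WT replicates 1 and 3, and neither on a KO array. They were at least 1.19-fold and at least 1.10-fold lower in KO, with measured differences of -0.55 ± 0.26 (SE) and -0.37 ± 0.26 (SE), both at a limma adjusted p of 0.801. Without WT replicate 1 these differences were -0.33 and -0.12 on the values as normalised, which leaves Hspa9 at least 1.02-fold lower and Hsph1 with no bound. The second Hspa9 probe, ILMN_2821196, detected on WT replicate 1 alone, read 7.58, 7.01 and 6.80 in WT and 6.92 and 6.74 in KO. Hspa4, the other HSP110 gene of the set, had no detected probe, with detection p from 0.124 to 0.622.

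Of the 12 tested probes, 3 (Hspa9, Hsph1 and Sgtb) had both KO arrays below all WT arrays, where 10.6% of all tested probes did, and 1 (Hspa8 ILMN_2918479) had both above, where 11.2% did. Hspa9, Hsph1 and Hsp90aa1 ILMN_2752883 passed the detection filter through WT arrays alone, as did 14.4% of all tested probes, so a value lower in KO was favoured by the filter.

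The endoplasmic reticulum chaperones Hspa5 and Hsp90b1 were below the WT mean on KO replicate 3 and not on KO replicate 1. Hspa5, the lumenal HSP70 known as BiP, which also holds the sensors of the unfolded protein response inactive, read 7.48, 7.50 and 6.89 in WT and 7.36 and 6.93 in KO, a difference of -0.14 ± 0.24 (SE). Hsp90b1, the lumenal HSP90 known as GRP94, read 8.01, 8.03 and 7.35 in WT and 7.85 and 7.11 in KO, a difference of -0.32 ± 0.30 (SE). In both genes WT replicate 3 was low as well, KO replicate 1 lay inside the WT range, and the groups overlap. Against KO replicate 1 alone the differences were 0.070 for Hspa5 and 0.051 for Hsp90b1, so the sign of each rests on KO replicate 3, where neither probe was detected. The limma adjusted p was 0.906 and 0.822. Of the 6 members with a promoter window, these are the 2 whose window holds the ER stress element. A link between the element and these values was not tested.

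Atf4, the transcription factor of the integrated stress response, behaved in the same way on its detected probe. ILMN_2642681 read 8.74, 8.19 and 7.64 in WT and 8.29 and 7.10 in KO, a difference of -0.50 ± 0.42 (SE) with a limma adjusted p of 0.805. KO replicate 1 lay 0.094 above the WT mean and KO replicate 3, where the probe was not detected, was lower by more than 1 log2 unit (-1.10). The spread within WT, 0.55 (SD, n = 3), exceeded the difference between the groups. The other Atf4 probe, ILMN_1223734, was not detected on any array, with detection p from 0.103 to 0.458.

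**Figure D4:**
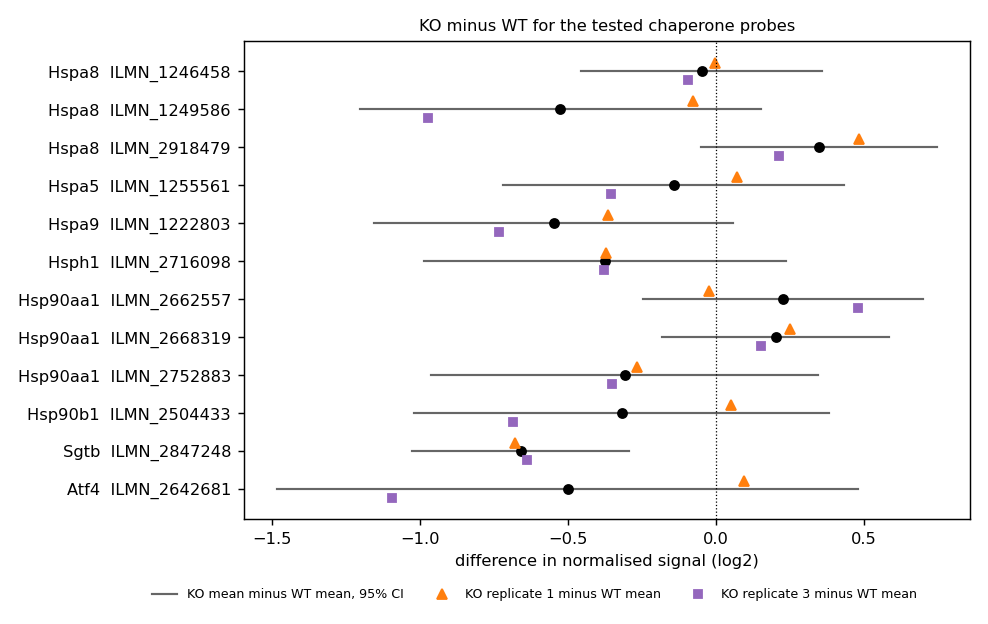
KO minus WT (log2) for the 12 tested chaperone probes, with black points and lines for the difference of means and its 95% confidence interval from limma, orange triangles for KO replicate 1 and purple squares for KO replicate 3, each against the WT mean. The interval of Sgtb, -1.03 to -0.29, does not reach 0, and the 2 KO arrays lie far apart for Atf4, Hsp90b1 and Hspa8 ILMN_1249586.

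As a set, 9 of the 12 tested probes were lower in KO, where 49.4% of all tested probes were, with a median difference of -0.31 beside 0.0048 for all tested probes. These counts include 3 probes each of Hspa8 and Hsp90aa1, which share a gene. The median difference of the 12 from their WT means was -0.012 on KO replicate 1 and -0.37 on KO replicate 3, beside 0.0069 and -0.026 for all tested probes. Without KO replicate 3 the median of the set was thus near 0, and it was -0.048 over the 5 probes detected on all arrays. Within WT the same median ranged from -0.14 on replicate 3 to 0.20 on replicate 1.

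The wider chaperone and stress network was read through 9 further lists of 136 genes, of which 128 had a probe and 30 a tested probe. Of their 34 tested probes, 19 were lower and 15 higher in KO, the median difference was -0.062, and 0 passed over all probes (smallest limma adjusted p 0.801). The filter favoured lower values here too, since 9 of the 34 were detected on WT arrays alone and 1 on KO arrays alone. J-domain co-chaperones had 9 tested probes, 7 lower, with a median of -0.19, and 4 of the 7 were detected on WT arrays alone. The 3 tested probes of other HSP70 and HSP110 genes had a median of -0.055 and the 5 of further HSP70 and HSP90 co-chaperones -0.096. Small heat shock proteins (3 of 3 higher, median 0.18), chaperonins (3 of 4 higher, 0.24) and folding factors of the endoplasmic reticulum (3 of 3 higher, 0.34) lay on the other side. The chaperonin median was -0.049 on KO replicate 1 and 0.41 on KO replicate 3, so its sign rests on KO replicate 3, and that of the folding factors was 0.24 and 0.024. The 3 folding factor probes belong to only 2 genes, Fkbp2 and Tmx1, and the groups overlap in each probe. Among the small heat shock proteins, Cryab and Hspb1 were each detected on only 1 WT and 1 KO array, and Hspb8 on all 5. The groups overlap in Hspb1 and Hspb8 and not in Cryab. The 4 probes of the unfolded protein response and ER-associated degradation had a median of -0.12, with 3 lower, and the 1 tested heat shock factor probe, of Hsf2, differed by 0.28.

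Dnajc6 encodes auxilin, the partner of Hspa8 in uncoating clathrin, and had the smallest p among J-domain genes. Its 3 tested probes differed by -0.43, 0.40 and -0.19. The first was detected on 2 WT arrays and neither KO array, and its group means gave at least 1.03-fold lower. Its 95% confidence interval was -0.93 to 0.062, and without WT replicate 1 its difference was -0.27 with no bound left. The second was high on KO replicate 3 alone (1.02 above the WT mean, against -0.23 for KO replicate 1). The gene of smallest p in each other list was Hspa4l (0.093), the phosphatase Ppp5c (0.29, not detected in WT), the small heat shock protein gene Hspb8 (0.26), the chaperonin subunit gene Tcp1 (0.30), the prolyl isomerase gene Fkbp2 (0.34 and 0.41 on its 2 probes) and Herpud1 (-0.41), of ER-associated degradation. None of these passed (limma adjusted p 0.801 to 0.921). The 2 Fkbp2 probes were high on different KO arrays. On KO replicates 1 and 3, against the WT mean, ILMN_1220875 was at 0.80 and -0.13 and ILMN_2962273 at 0.059 and 0.75. Ppp5c was detected on both KO arrays and on no WT array, so that it entered the test through KO alone. Its group means put it at least 1.09-fold higher there, with a 95% confidence interval of -0.064 to 0.65. Under median scaling, with its shift of -0.39 over all tested probes, Hspb8 (-1.13), Hsf2 (-0.60), Tcp1 (-0.49) and Fkbp2 ILMN_2962273 (-0.46) lay below that shift, and Fkbp2 ILMN_1220875, Hspa4l and Ppp5c were below 0 but above it. Herpud1 kept its sign under the 20 alternatives that gave it a value, some of which cannot alter a difference. Without KO replicate 3, on the values as normalised, Herpud1 was at -0.078, Hsf2 at -0.17 and Hspa4l at -0.065.

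In the list of ATF4 targets and integrated stress response, 2 genes were tested, and neither passed. They were Asns, the asparagine synthetase, and Atf5, a transcription factor of the ATF4 family, out of 19 genes of that list with a probe. Asns read 7.50, 7.31 and 7.22 on the WT arrays and 7.03 and 6.77 on the KO arrays, and Atf5 read 7.46, 7.37 and 7.57 in WT and 7.15 and 6.93 in KO. Detection held for each on every one of the 3 WT arrays and on neither KO array, a pattern that 3.41% of all tested probes showed. In the other lists the J-domain gene Dnajb2 (-0.36) and the co-chaperone gene St13 (-0.069) showed it too. Both KO arrays lay below all WT arrays in Asns, Atf5 and Dnajb2, but not in St13. Asns and Atf5 thus passed the filter through WT arrays alone, which favoured a lower KO value. Their group means gave at least 1.09-fold and at least 1.19-fold lower in KO, with measured differences of -0.44 and -0.43 (limma adjusted p 0.801 for both). On KO replicate 1 alone the differences were -0.31 for both genes, where Atf4 itself lay inside its WT range. With WT replicate 1 left out and the remaining arrays normalised anew they were -0.24 and -0.22.

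**Figure D5:**
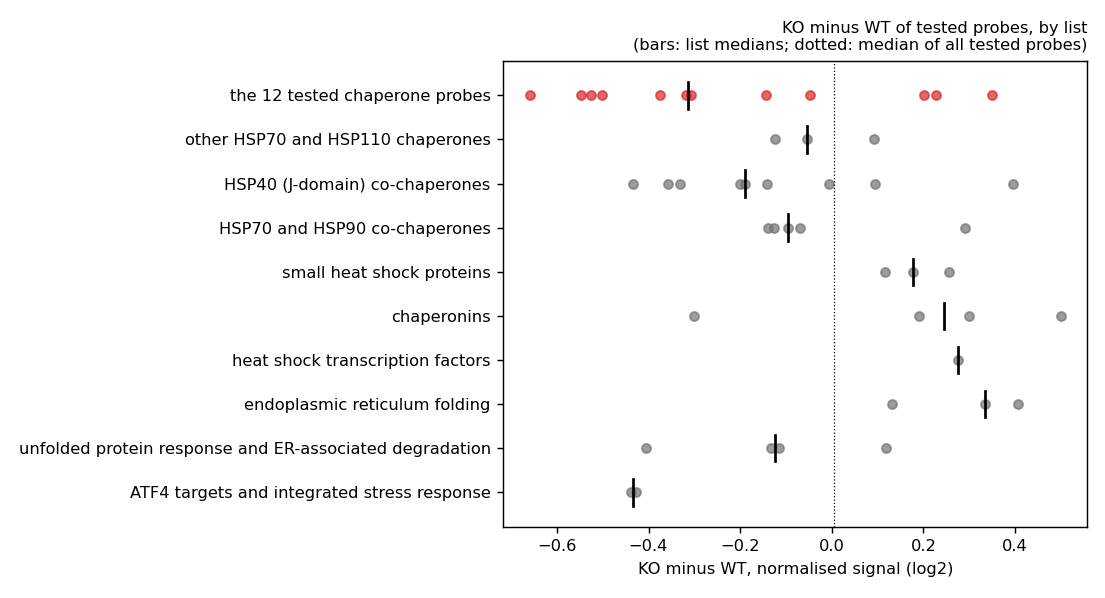
KO minus WT (log2) of every tested probe in the chaperone set (red) and in 9 further lists (grey), with bars at list medians and a dotted line at the median of all tested probes. The chaperone set spans -0.66 to 0.35 around a median of -0.31, and the lists of small heat shock proteins, chaperonins and endoplasmic reticulum folding have medians of 0.18, 0.24 and 0.34.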

How the data were processed

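RNA was amplified by whole-transcriptome amplification and biotin-labelled, per the labels' protocols, and read on single-colour Illumina bead arrays. The authors deposited, per the file headers, a linear signal intensity without normalization. Beside it stands a deposited detection p-value, so that every array has both values for all 45281 probes. A second deposited table holds the authors' processed intensity values, whose 5 columns share 1 distribution. GenomeStudio is named in the submitters' processing notes, with no version. Its settings are not given in the sources.

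Probe symbols are those of the GEO platform table and may be outdated. It gives 1 symbol for 34885 probes and none for 10378, and the 18 probes with more than 1 went unnamed. Signals were background-corrected from the detection p-values, quantile-normalised and taken to log2 with an offset of 16 (neqc in limma 3.58.1, R 4.3.3). Testing was limited to the 3347 probes detected (p under 0.05) on 2 or more arrays, and was done with lmFit and eBayes, two-sided, without a covariate, and adjusted by Benjamini-Hochberg over all of them at 0.05. Differences of low probes are understated by the offset. Where a group had no array with detection, the fold between group means is a bound. That group's values were raised to the lowest detected signal of each array where they lay lower, and the other group's were kept. Such a bound leaves out the variation among arrays, which the confidence intervals hold. The fit was tested on simulated data with independent noise and known changes larger than any member difference. No simulated array stood apart, so this run does not bear on KO replicate 3 or on differences as small as those of the members.

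Sample titles gave the groups and replicate numbers. Members, lists and tests were chosen with earlier results of these data known. Every member probe is accounted for. Of each other list, the rule allowed up to 3 tested genes of smallest p, and the first is given, with both tested genes of the ATF4 list. Tmx1, Cryab, Hspb1, Dnajb2 and St13 are named beside that rule. Promoter windows are RefSeq's, on GRCm38.p6. No slide or scan information was used.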

Additional observations from a re-analysis of the deposited data

How the results depend on the processing

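No chaperone probe passed limma's threshold of 0.05 under any of the 21 alternatives (lowest adjusted p 0.146, for Hspa8 ILMN_1249586), and the alternatives reuse the same 5 arrays. Over all tested probes the count past the threshold was 0 in every alternative but those without KO replicate 1. With 1 array left out it ranged from 0 to 48, the upper value against KO replicate 3 alone on the values as normalised, where the lone KO array is assumed to vary like WT. Pvalb passed only there (adjusted p 0.0305 at the lowest). The median of the chaperone probes (-0.31) was -0.99 under median scaling, beside a shift of -0.39 in the median over every tested probe, and -0.048 over the 5 probes detected on all arrays. With 1 array left out it ranged from -0.53 to -0.0020, nearest 0 without KO replicate 3.

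Values that crossed 0 are given by setting. Under median scaling, whose common shift of -0.39 by itself moves small positive values below 0, they were those of Hspa8 ILMN_2918479 (-1.23), Hsp90aa1 ILMN_2662557 (-0.24) and ILMN_2668319 (-1.58), Dnajc6 ILMN_1256627 (-0.50), Fkbp2 ILMN_1220875 (-0.31) and ILMN_2962273 (-0.46), Hsf2 (-0.60), Hspa4l (-0.17), Hspb8 (-1.13), Ppp5c (-0.054) and Tcp1 (-0.49). Of these, Hsp90aa1 ILMN_2662557, Fkbp2 ILMN_1220875, Hspa4l and Ppp5c stayed above the shift. After cyclic loess they were Hspa8 ILMN_1246458 (0.34) and ILMN_1249586 (0.26) and Dnajc6 ILMN_1256627 (-0.12), and with array weights Fkbp2 ILMN_2962273 (-0.0065). Hsp90aa1 ILMN_2668319 kept its sign there but was at 1.89. The cause was not tested. With 1 array left out, the differences ranged from -0.13 to 0.059 for Hspa8 ILMN_1246458, -0.39 to 0.075 for Hspa5, -0.023 to 0.54 for Hsp90aa1 ILMN_2662557, -0.77 to 0.056 for Hsp90b1, -1.22 to 0.10 for Atf4, -0.23 to 1.14 for Dnajc6 ILMN_1256627, -0.58 to 0.16 for Dnajc6 ILMN_2733605, -0.14 to 0.85 for Fkbp2 ILMN_1220875, -0.18 to 0.79 for Hsf2 and -0.065 to 0.27 for Hspa4l.

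Sgtb, Hspa9, Hsph1 and Hsp90aa1 ILMN_2752883 kept their sign wherever they passed the filter. Sgtb ranged from -1.04 to -0.17. Titles share replicate numbers 1 and 3, but no label ties them to a shared animal or day, and only 2 pairs exist. Same-numbered arrays deviated together by r = 0.20 and 0.13 across probes. With only 2 KO arrays, the differently numbered pairs must give the same sizes with the opposite sign, here -0.20 and -0.13. These values therefore cannot decide whether the numbers mark pairs. With the replicate block the count past the threshold stayed at 0, the chaperone median was -0.27, Sgtb was at -0.65 and Hspa8 ILMN_1246458 at 0.059. Replicate 2 has a WT array only, so these differences are the same as with WT replicate 2 left out on the values as normalised. Probes that failed a stricter filter have no value there, and those that passed keep their main difference.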
